A study of Drosophila melanogaster with 596 samples.

Results

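The slowpoke (slo) gene encodes the pore-forming subunit of the large-conductance potassium channel that opens with calcium and depolarization, and Slob encodes the slowpoke binding protein, which binds that channel and changes its gating. The channel ends action potentials and limits transmitter release in neurons and acts in muscle. In the fly it is also needed for rhythmic behaviour downstream of the circadian clock, and Slob has been known as a transcript of the fly head that rises and falls with the time of day. Both genes make many isoforms from several start sites and alternative exons.

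The members were the rows of CG10693 (slo) and CG43756 (Slob) in a table of 11064 transcripts from 7422 genes, found by their gene identifiers. They numbered 34 rows, 23 of slo and 11 of Slob. The samples were female heads of Drosophila melanogaster. The flies came from 596 crosses in which pA1 mothers met pB2 fathers (63.4% of crosses) or pA2 mothers met pB1 fathers (36.6%), and all parents were recombinant inbred lines of a panel known as the Drosophila Synthetic Population Resource. Each line is a mosaic of inbred founders, A1 to A7 with AB8 in population A and B1 to B7 with AB8 in population B, so that a cross carries 1 haplotype from each population at every locus. The females were 3 to 5 days old, very likely mated and not treated, and a cross has 1 set of values, from pooled heads (per the study's methods, 2 of the crosses were prepared more than once), so that p-values measure the spread among crosses. The time of day at which heads were taken is not given in the sources used here.

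The values are scores without a physical unit. The authors ranked the crosses for each transcript onto a normal distribution, once before and once after they regressed out subpopulation and the leading 10 principal components. Every row therefore has nearly the same distribution, with a standard deviation between 0.983 and 1.007, so the data hold the order of the crosses for a transcript but no level of slo or Slob, and no fold change can be given. For the same reason the label of head tissue cannot be checked by the level of marker genes. The median of a cross over its transcripts lay between -0.277 and 0.637. In RNA from whole heads, fewer cells of a type and less RNA per cell cannot be told apart.

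The 34 rows held 6 distinct profiles. Rows of one gene were identical where the array could not separate the isoforms, because a probe was allowed to match every isoform that contained it. The 23 slo rows formed 2 profiles. The first, named slo PA here after its first isoform, stood for 19 isoforms, and the second, slo PM, for the isoforms PM, PR, PS and PT. The 11 Slob rows formed 4 profiles, which were Slob PA for the 5 isoforms PA to PE, Slob PF for PF, PG and PH, Slob PJ for PJ and PK, and Slob PI for that isoform alone. Most genes, 6586 of them, had 1 row. Counting the members themselves, 7 genes had at least as many rows as slo and 81 at least as many as Slob.

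The isoforms of one gene varied together, though not to the same degree. In each of the 6 profiles the lowest cross was at -3.15 and the highest at 3.15, as the quantile step fixes, and the median ran between 0.0021 and 0.0104. Over the 596 crosses slo PM correlated with slo PA at r = 0.80 (rho 0.83), and 504 crosses (84.6%) had both values on the same side of 0. The difference between them, slo PM minus slo PA, ran from -2.01 to 2.18 with a median of 0.0125 and a standard deviation of 0.63, and it was larger than 1 in either direction in 61 crosses (10.2%). The lowest slo PA was in the cross of maternal line 11279, where slo PM was -2.44, and the highest slo PA was in the cross of line 11050, where slo PM was 2.44.

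Among the Slob profiles, PA, PF and PI were close to each other and PJ stood further off. Slob PF correlated with Slob PA at r = 0.95 and Slob PI with Slob PA at r = 0.94. Slob PJ correlated with PA at r = 0.77, with PF at r = 0.75 and with PI at r = 0.84. The difference Slob PF minus PA had a standard deviation of 0.30 and ran from -0.87 to 1.30, with 4 crosses past 1. The difference Slob PJ minus PA had a standard deviation of 0.67 and ran from -2.35 to 2.24, with 81 crosses (13.6%) past 1. These correlations are a description without a test, since isoforms can share probes. Of 808 genes with at least 2 distinct profiles, the lowest correlation within the gene had a median of 0.67. The lowest within slo was above that of 591 of these genes, and the lowest within Slob above that of 526.

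**Figure D1:**
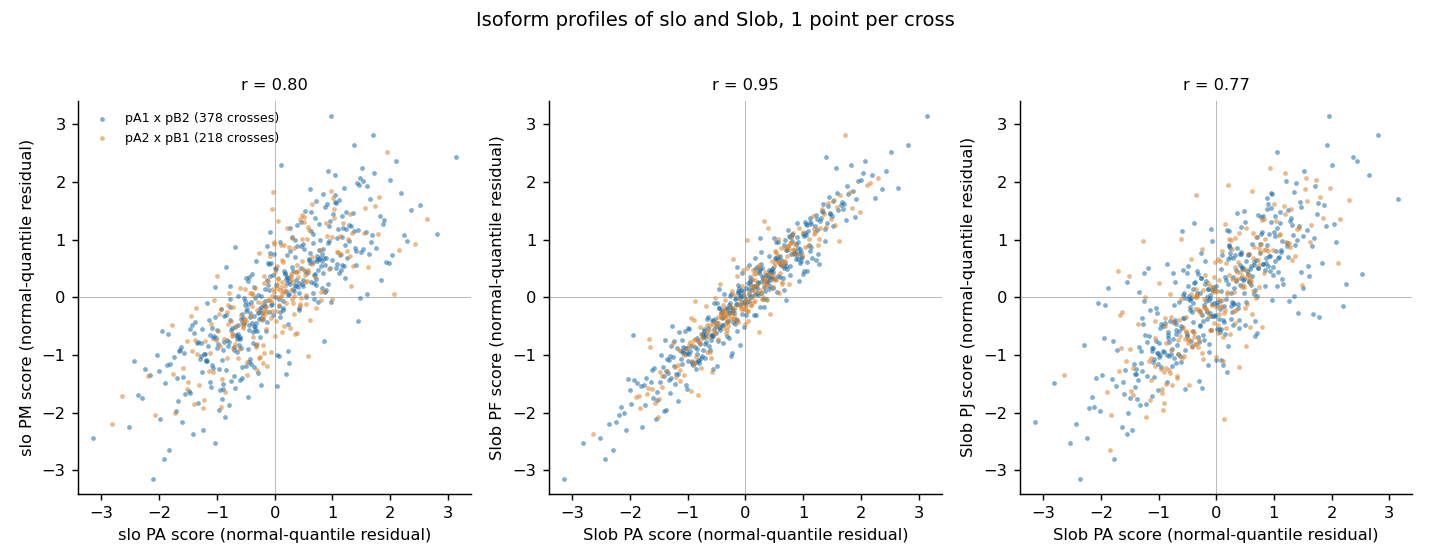
Scores of slo PM against slo PA, Slob PF against Slob PA and Slob PJ against Slob PA, with 1 point for each of 596 crosses, coloured by subpopulation cross. The points lie closest to the diagonal for Slob PF, at r = 0.95, and spread wider for slo PM, at r = 0.80, and Slob PJ, at r = 0.77.

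The spread of the profiles differed between the subpopulation crosses. For slo PA the standard deviation was 1.06 among pA1 by pB2 crosses against 0.891 among pA2 by pB1 crosses, a ratio of 1.19 (permutation test, two-sided, p = 0.00359). For slo PM the ratio was 1.22 (permutation p = 0.00077). For Slob PA it was 1.21 (p = 0.00187 by permutation), for Slob PF 1.18 (p = 0.00684 by permutation) and for Slob PI 1.15 (p = 0.0193 by permutation). For Slob PJ it was 1.05, and the permutation p was 0.422. With 10 further principal components removed the ratio no longer passed for Slob PF (1.11) and Slob PI (1.09), nor for Slob PI as a ratio of interquartile ranges (1.20). The means were near 0 in both subpopulation crosses, as the authors' correction sets them. The ratio was not taken over all transcripts, so whether the wider spread in pA1 by pB2 is particular to slo and Slob was not tested. Profiles of one gene are also not independent of each other.

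Slob varied across crosses with transcripts of several genes of the circadian clock. The transcript most like Slob PA among all other genes was timeless (tim), the partner of period that light degrades, at r = 0.84 (rho 0.85, permutation p = 1e-05, the smallest the 100000 permutations can give). The reverse held too, since of the 7421 other genes Slob had the largest absolute correlation with tim. Slob ranked 4th for period (per) and 4th for Clock (Clk). In 499 of 596 crosses (83.7%) Slob PA and tim lay on the same side of 0. The cross of maternal line 11100 held the highest value of both genes, 3.15. The lowest value of tim, -3.15, was in the cross of line 12044, where Slob PA was -2.64, the third lowest. The lowest Slob PA, -3.15, was in the cross of line 11291, where tim was -1.71. Within pA1 by pB2 the correlation was 0.85, within pA2 by pB1 it was 0.83, and it was 0.84 after the 2 crosses with the most extreme Slob PA were left out.

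After tim, the genes most like Slob PA were gol, which encodes a ubiquitin ligase of endosomes, at r = 0.83, Usp8, a deubiquitinating enzyme, at r = 0.81, CG2681 at r = 0.78 and Gp210, a membrane protein of the nuclear pore, at r = 0.73. All 5 had limma adjusted p of at most 6.34e-68, and they lie on 4 chromosome arms. Of these, only tim lies on the arm of Slob, 2L, 498 genes away. The same 5 genes led the lists of Slob PF and Slob PI, and 4 of them, all but Gp210, were among the first 5 of Slob PJ.

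Clock genes as a group were counted from a list of 20 genes, of which 16 were measured. The list was chosen with earlier results of these data known, so its counts are a description and no independent support. It includes Usp8, which had r = 0.84 with tim in these crosses. 8 of the 16 passed the test with Slob PA, 7 positively and 1 negatively. Of all 7421 genes tested, 18.6% passed, 7.95% positively and 10.6% negatively (limma, adjusted p under 0.05, first row of each gene). The median absolute r over the list was 0.133, and over all genes 0.0507. The positive genes were tim, Usp8, per at r = 0.69, and Pdp1, an activator of Clk, at r = 0.54 in its first row, PB. In its row PJ, Pdp1 was at r = 0.69. Also positive were cwo, a repressor of the clock's targets, at r = 0.48, and norpA, the phospholipase of phototransduction, at r = 0.30. The last was Pdfr, the receptor of the clock neuropeptide, at r = 0.19. Of the 8, Pdfr no longer passed with 10 further principal components removed (0.07). Clk, which with cycle activates tim and per, was the negative one at r = -0.60. The partner of Clk, cyc, had r = 0.03 and did not pass. Kinases of the clock proteins (dco, sgg, nmo, CkIIalpha and CkIIbeta) had values between -0.07 and 0.07 and did not pass either.

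The 4 Slob profiles followed tim to different degrees. The r with tim was 0.81 for Slob PF, 0.81 for Slob PI and 0.66 for Slob PJ. Exchanging the values of the profiles within crosses at random gave p = 1e-05 by permutation for the gap of 0.18 between Slob PA and Slob PJ, p = 2e-05 by permutation for the gap of 0.03 between PA and PF, and p = 0.00033 by permutation for the gap of 0.03 between PA and PI. The gene most like Slob PA is tim, so its choice can favour PA in these tests. With Usp8 the r was 0.815 for Slob PF, 0.809 for PA, 0.768 for PI and 0.632 for PJ. Slob PJ had smaller absolute r than Slob PA with each of the 8 clock genes past the test, such as 0.50 against 0.69 for per and -0.46 against -0.60 for Clk. These 8 were picked by their test with Slob PA, which favours PA in this count. The difference Slob PJ minus PA itself correlated negatively with CG2681 (r = -0.32), mdu (-0.31), tim (-0.27) and per (-0.27) and positively with Clk (0.21), all past the test. Of the 16 clock genes measured, 8 passed with this difference, against 5.26% of all genes tested. Slob PJ and Slob PA have nearly the same spread, so these values follow from the weaker r of Slob PJ. They are no separate evidence of a link between the difference and the clock genes.

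**Figure D2:**
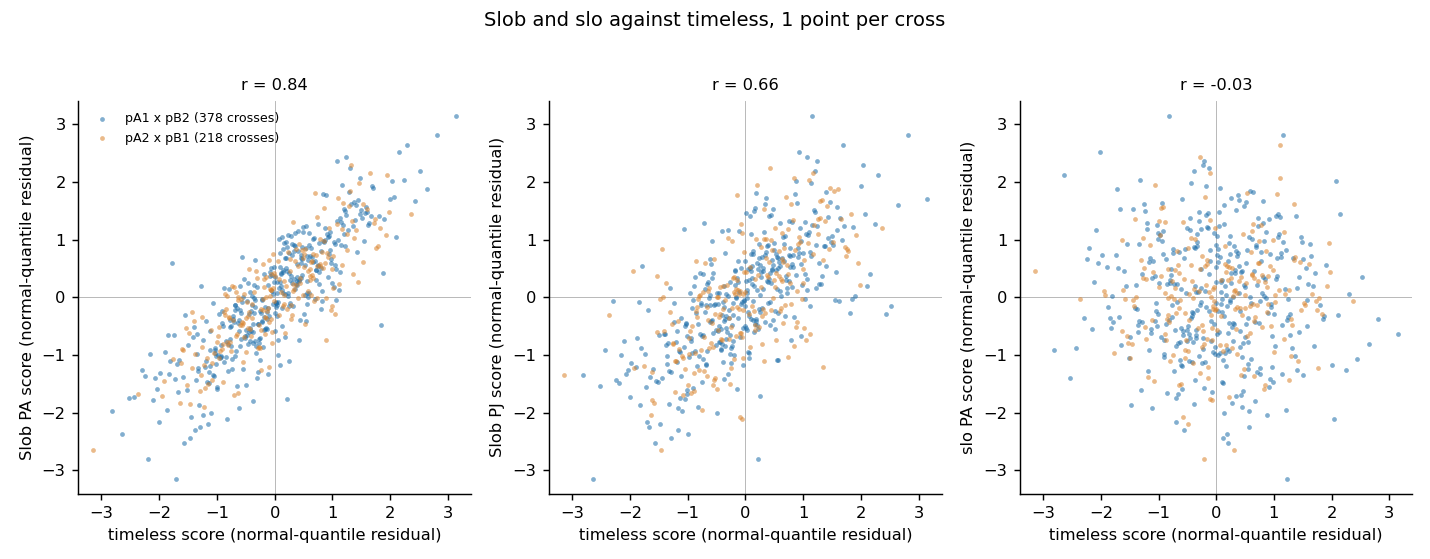
Scores of Slob PA, Slob PJ and slo PA against the score of timeless, with 1 point for each of 596 crosses, coloured by subpopulation cross. Slob PA rises with timeless in both subpopulation crosses (r = 0.84), Slob PJ rises with more scatter (r = 0.66), and slo PA shows no slope (r = -0.03).

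With tim in the model, the correlation of Slob PA with some of these genes was smaller than without it, but did not vanish for others. The partial r was 0.45 for gol, 0.34 for Usp8, 0.49 for CG2681, 0.42 for Gp210 and 0.38 for Sidpn, all past the test (limma, adjusted p of at most 8.91e-05). For per it was 0.16 (adjusted p = 0.0376). For Pdp1 it was 0.15 in its row PJ (adjusted p = 0.0626) and 0.09 in its row PB (limma adjusted p = 0.142). For Clk it was 0.08 and for cwo -0.01, with adjusted p of 0.362 and 0.879. This model was chosen after the correlations were seen.

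Slob went with many transcripts outside the clock list as well, at low r. With Slob PA 2374 of 11053 transcripts passed the test (21.5%), 1001 positively and 1373 negatively, yet the median absolute r over all genes was 0.0507. With Slob PF 2313 transcripts passed (20.9%), with Slob PI 2361 (21.4%) and with Slob PJ 1839 (16.6%). Of those called with Slob PA, 2002 (84.3%) were called in the same direction with Slob PF and 1431 (60.3%) with Slob PJ. In pA2 by pB1 alone, which has fewer crosses, 4.35% of transcripts passed for Slob PA, 3.76% for PF, 3.83% for PI and 1.66% for PJ.

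The slo profiles were not called with clock genes. The r of tim was -0.03 with slo PA (permutation p = 0.521) and -0.08 with slo PM (permutation p = 0.0527). None of the 16 clock genes passed the test with either slo profile, against 7.96% of all genes with slo PA and 1.02% with slo PM, shares at which few or none of 16 would pass. Their r ran between -0.09 and 0.09. Exchanging slo PA and Slob PA at random within crosses gave p = 1e-05 by permutation for the gap of 0.82 between their absolute correlations with tim. Here too tim is the gene most like Slob PA.

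The channel and its binding protein had weak negative correlations across crosses. The r of slo PA with Slob PA was -0.08 (rho -0.07, permutation p = 0.0665), and that of slo PM with Slob PA was -0.10 (rho -0.09, permutation p = 0.0141). The 8 pairs of a slo and a Slob profile had r between -0.11 and -0.04. In the limma fits of all transcripts on the slo profiles none of them passed, with adjusted p between 0.151 and 0.562. In the fits on the Slob profiles, where the adjustment runs over other p-values, 1 of the 8 passed, slo PM with Slob PI at r = -0.11 (limma adjusted p = 0.0282), and the next lowest adjusted p was 0.0598. That pair did not pass with 10 further principal components removed, by ranks, in either subpopulation cross alone or with timeless as a covariate. With timeless as a covariate slo PA passed instead, with Slob PA (r = -0.10, adjusted p = 0.0496) and with Slob PI (r = -0.10, adjusted p = 0.0475), in a fit chosen after the data were seen. The negative sign was not kept throughout. With 10 further principal components removed slo PA was at -0.01 with Slob PA and at 0.01 with Slob PF. In pA2 by pB1 alone slo PA was at 0.04 with Slob PF. The pairs share profiles, so they are not independent of each other. The cross with the lowest slo PA had a Slob PA of 1.5, and the cross with the highest slo PA had a Slob PA of -1.27. The 2 genes lie on different chromosomes, slo on 3R and Slob on 2L.

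Many of the transcripts most like slo lay near it on the chromosome. With slo PA the largest absolute r were those of ana1, a centriole protein, at -0.40, CG6980 at 0.39, 5PtaseI, a phosphatase of inositol phosphates, at -0.32 in its row PB, shakB, an innexin of electrical synapses, at 0.28 (0.15 and not past the test with 10 further principal components removed) and puf, a deubiquitinating enzyme, at -0.27. All had limma adjusted p of at most 3.76e-08. Along 3R ana1 is 16 genes and puf 6 genes from slo on one side, and CG6980 is 17 and 5PtaseI 64 genes away on the other, while shakB is on the X. With slo PM the order was CG6980 at 0.47, 5PtaseI at -0.42, ana1 at -0.36, sosie at 0.33 and CG31437 at 0.31. Of the 10 genes most like slo PA 7 lay on 3R, 5 of them within 50 genes of slo. Of the 10 genes most like slo PM all lay on 3R, 7 of them within 50 genes of slo. Among the 10 genes most like Slob PA only 2 lay on 2L and none within 50 genes.

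The share of genes called with slo fell with distance along 3R. Within 10 genes of slo, 5 of 11 measured genes passed with slo PM, and from 11 to 50 genes away 14 of 35 passed. From 51 to 200 genes away 19 passed (10.6%), farther on 3R 9 of 1627 (0.553%), and on the other chromosomes 29 of 5542 (0.523%), against 1.02% of all 7421 genes. With slo PA the shares over the same bins were 36.4%, 37.1%, 10.1%, 6.7% and 7.96%, against 7.96% of all genes. Directions near slo were mixed. Of the genes on either side, AstA, the allatostatin A neuropeptide, 8 genes away, passed with slo PM (r = 0.23) and slo PA (0.15), and ash2, of a histone methyltransferase complex, 5 genes away, passed with slo PM (0.17) and not with slo PA (0.05). The others, CG6695, Ppox, Polr2L and tok, had r between -0.12 and 0.11 and did not pass with either.

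Around Slob the share was highest in the nearest bin, which holds few genes, and beyond it was close to that elsewhere. With Slob PA 3 of 8 measured genes within 10 genes passed (37.5%), 9 of 50 (18%) from 11 to 50 genes away, 32 (21.5%) from 51 to 200 and 1138 of 6052 on other chromosomes (18.8%). The 3 were the next gene on each side, Myo28B1, a myosin, at r = 0.34 and CG6739 at r = 0.19, and Tep2, a thioester-containing protein of immunity, at r = 0.11, and these 3 passed with all 4 Slob profiles. Obp28a, an odorant-binding protein, RapGAP1 and CG13794 had r between -0.05 and 0.06 in every Slob profile. A gene 77 genes away, CG34134, had r = -0.48 with Slob PA and was singled out after its value was seen.

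**Figure D3:**
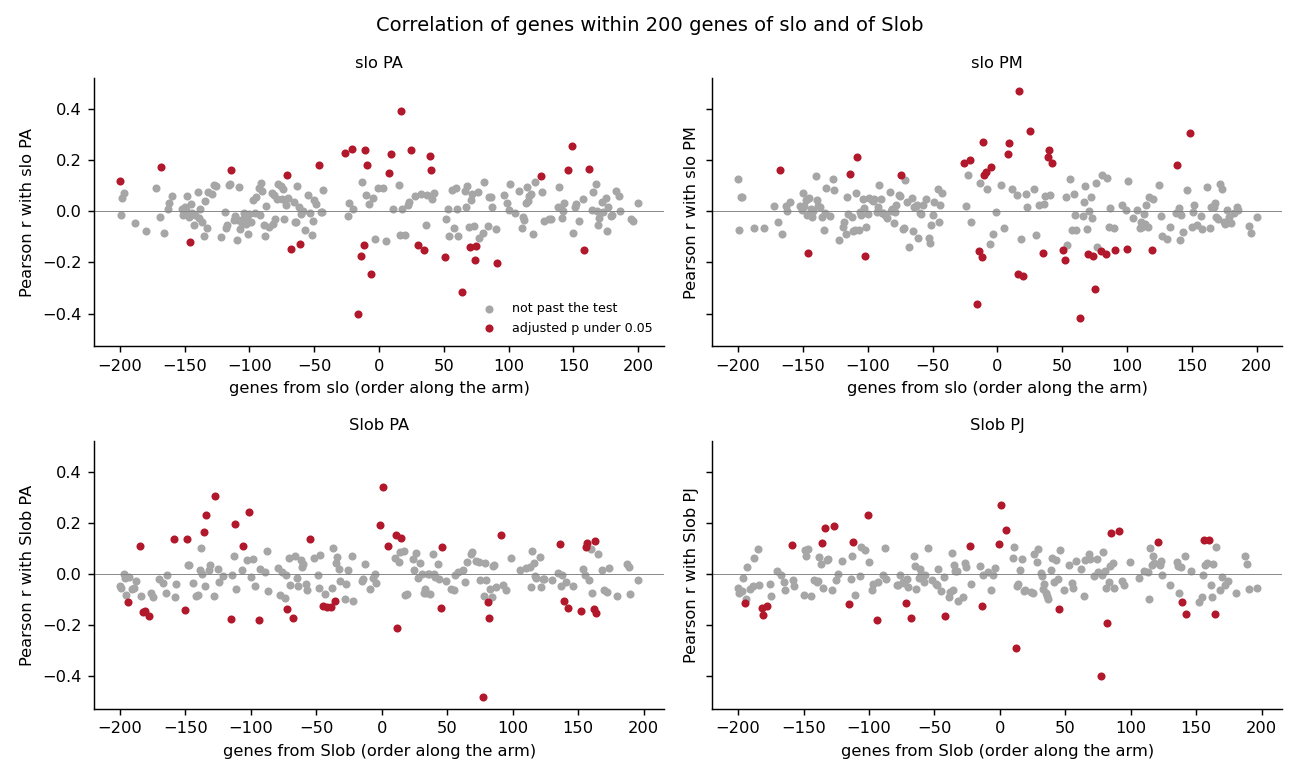
Pearson r of each measured gene within 200 genes of slo (upper panels) or Slob (lower panels) with 4 of the isoform profiles, against the number of genes that separate them along the arm, with red points for an adjusted p under 0.05. Around slo the red points crowd within 50 genes and reach 0.47 for slo PM, while around Slob they are spread over the whole window.

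The number of transcripts called differed between the slo profiles. With slo PA 970 of 11041 transcripts passed (8.79%), 683 positively and the others negatively, and with slo PM 0.978% passed, 65 positively and 43 negatively. Of these, 91 (84.3%) were called in the same direction with slo PA, which is 9.38% of the calls with slo PA. After removal of 10 further principal components 94 transcripts passed with slo PA and 50 with slo PM. The cross median over all transcripts correlated with slo PA at r = 0.17 and with slo PM at r = 0.08, and its part in these counts was not tested beyond the fit with it as a covariate, which changed neither count by over 1.5 times. In that fit the calls with slo PA numbered 807, of which 442 were positive, so that the excess of positive calls was smaller.

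The difference slo PM minus PA passed with 2.26% of 11041 transcripts. The largest absolute r were those of CG11836 (-0.27), Saf-B, a nuclear RNA-binding protein (-0.25), and Osbp, an oxysterol-binding protein (-0.25), which lie 75, 20 and 52 genes from slo on 3R. None of the 16 clock genes and none of the 14 partners passed with it. With the cross median as a covariate the share was 0.915%, and in pA2 by pB1 alone 2 transcripts passed. For Slob the difference PF minus PA passed with 1320 of 11053 transcripts (11.9%), led by Acn (-0.29), Lk6, a protein kinase (0.28), and AIMP2, of the aminoacyl-tRNA synthetase complex (0.28), and with 86 after removal of 10 further components, where Acn (-0.13) and Lk6 (0.10) no longer passed.

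Partners and regulators of the channel were counted from a list of 14 genes, all measured. With slo PA 4 of 14 passed, all positively, against 7.96% of all genes in either direction and 5.58% in the positive one. They were Pka-R2, the regulatory subunit of protein kinase A, at r = 0.23, its catalytic subunit Pka-C1 at r = 0.17, the tyrosine kinase Src64B at r = 0.15 and 14-3-3epsilon, of the family that binds Slob, at r = 0.15. With slo PM only Pka-R2 passed (r = 0.17), against 1.02% of all genes. With Slob PA 3 of 14 passed, all negatively, against 10.6% of all genes in that direction, and these were Pka-R2 at -0.20, the calcium channel cac at -0.15 and the RNA-binding protein nonA at -0.12. Pka-R2 thus had opposite signs with slo and Slob. With 10 further principal components removed, none of the 4 passed with slo PA, at r between 0.04 and 0.09, nor did Pka-R2 with slo PM, and cac (-0.09) and nonA (-0.06) no longer passed with Slob PA. The gene dysc, whose product binds the slo channel and is needed for rhythmic behaviour, had r = 0.04 with slo PA and -0.02 with Slob PA, and 14-3-3zeta had 0.03 and 0.05, none past the test.

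Of 21 potassium channel genes listed, 19 were measured. With Slob PA 6 of 19 passed, against 18.6% of all genes. Positive were Hk, the beta subunit of the Shaker channel, at r = 0.31, the Shaker gene Sh at r = 0.20 and the inward rectifier Irk1 at r = 0.19. Sh was at 0.07 and did not pass with 10 further components removed. Negative were the leak channels Ork1 at -0.22 and Task6 at -0.12 and the channel SLO2, a relative of slo, at -0.20. Task6 did not pass with the cross median as a covariate (-0.09) or in either subpopulation cross alone. With slo PA 2 of 19 passed, KCNQ at -0.13 and Shaw at 0.12, and with slo PM none did, against 7.96% and 1.02% of all genes. Neither passed with 10 further components removed, where KCNQ was at -0.02 and Shaw turned to -0.01. Of 9 calcium and sodium channel genes measured, 4 passed with Slob PA, against 18.6% of all genes (cac, NaCP60E, Ca-beta and Teh1, with r between -0.15 and 0.13), and 1, NaCP60E, with slo PA, against 7.96% (r = 0.14). NaCP60E passed with neither after removal of 10 further components, and Teh1 did not pass with the cross median as a covariate. Ca-beta did not pass with Slob PA in pA1 by pB2 alone (0.10) or in pA2 by pB1 alone (0.20).

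Markers of cell types of the head were counted in the same way. With slo PA 1 of 8 neuronal markers passed, elav at r = 0.22, which also passed with slo PM (0.16) and turned to -0.002 and -0.01 with 10 further components removed. None of 5 glial, 5 photoreceptor, 8 muscle and 5 fat body markers passed with slo PA, against 7.96% of all genes. With Slob PA 2 of 8 neuronal (brp at -0.15, Snap25 at -0.13), 2 of 5 glial (moody at 0.12, Gs2 at 0.12), 1 of 5 photoreceptor (norpA, also a clock gene of the list), none of 8 muscle and 2 of 5 fat body markers (to at -0.13, Yp3 at 0.11) passed, against 18.6% of all genes. In pA2 by pB1 alone Snap25 turned to 0.0187 and the fat body gene to was at 0.00647. Gs2, Yp3 and brp did not pass with 10 further components removed. The glial marker moody did not pass in pA1 by pB2 alone (0.12) or in pA2 by pB1 alone (0.11). The part of cell type makeup in the correlations of slo and Slob was not tested.

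**Figure D4:**
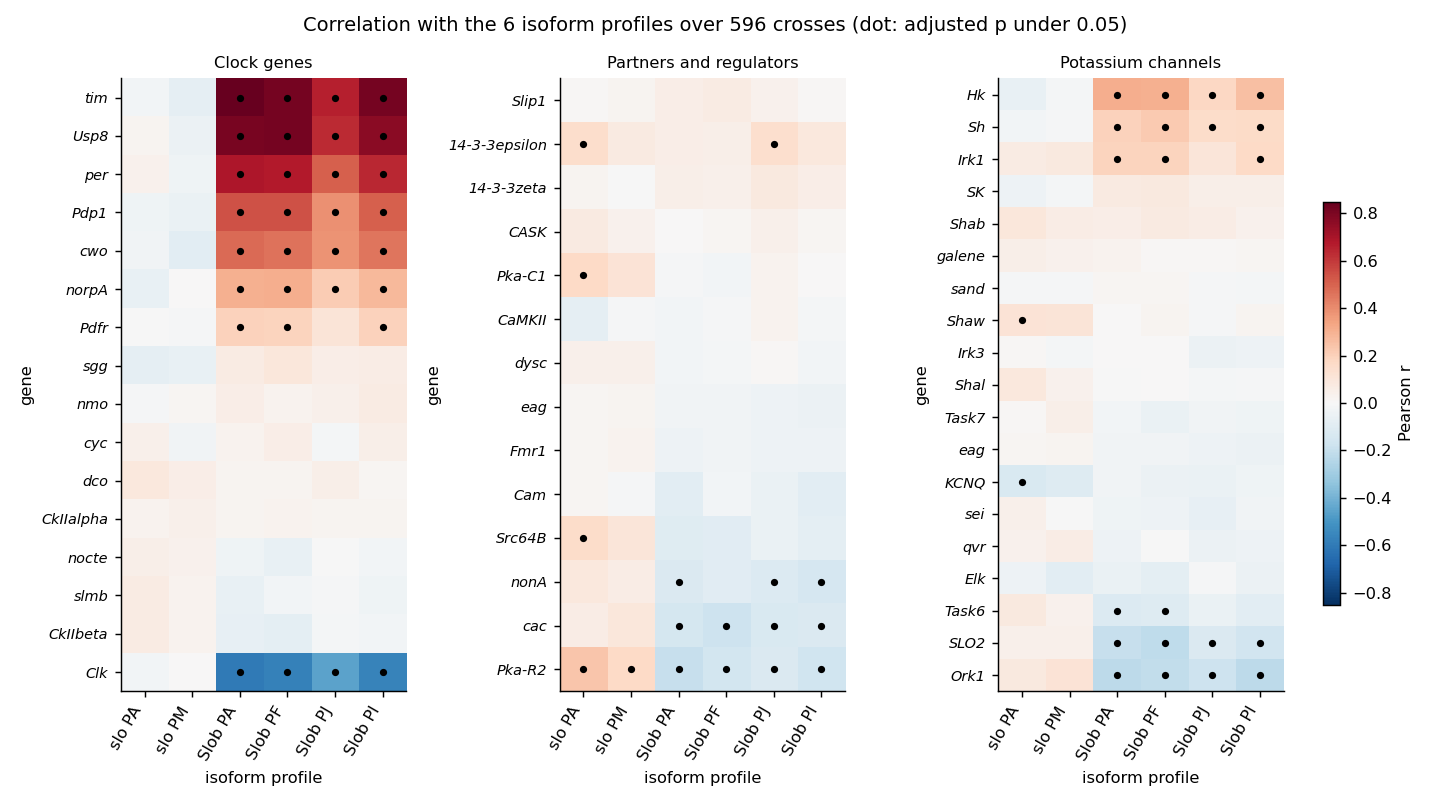
Pearson r of the listed clock genes, partners and regulators, and potassium channel genes with the 6 isoform profiles over 596 crosses, with colour from blue (negative) through white to red (positive) and a dot where the adjusted p was under 0.05. The Slob columns are dark for tim, Usp8, per, Pdp1, cwo and Clk, with Slob PJ paler than the others, while the slo columns stay pale in the clock panel.

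Founder haplotypes at the slo locus were set beside the slo values. The study mapped slo to 2 positions in the gene's own region on 3R, 1 for each profile, and the founder assignments used here are the same at both in all 45 crosses. Founder assignments there were used for 25 crosses, all pA1 by pB2, in which both parents were assigned with certainty to a founder seen in at least 2 crosses. The peak was mapped by the authors in crosses that include these, so what follows is no independent evidence of an effect at that place. From the pA parent 6 crosses carried A3, 7 carried A4, 2 carried A5 and 10 carried A6, and from the pB parent 3 carried B5 and 22 carried B7.

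Crosses with A4 were low and those with A6 high. In the 7 crosses with A4, slo PA ran from -1.74 through a median of -1.19 to -0.61, with a mean of -1.25 ± 0.36 (SD). In the 10 crosses with A6 it ran from 0.09 through 0.69 to 1.51, with a mean of 0.78 ± 0.49 (SD). These groups did not overlap, and neither did A4 and A3, where slo PA ran from -0.17 through 0.29 to 2.36. The share of all transcripts that separate these founders in the same way was not counted, so this is a description. The 2 crosses with A5 were at 0.68 and 0.78. For slo PM the 7 crosses with A4 ran from -1.38 through -0.85 to -0.10, the 6 with A3 from -0.41 through 0.10 to 1.51, and the 10 with A6 from -0.21 through 1.16 to 2.24. In slo PM the highest A4 cross lay above the lowest A6 cross, which carried B5.

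The founders of both parents accounted for 70.7% of the variance of slo PA (adjusted for the number of founders 64.8%, permutation p = 3e-05) and for 80% of that of slo PM (adjusted 76%, permutation p = 1e-05, the smallest possible). With the pA founders alone the share was 70.7% for slo PA and 68.9% for slo PM. With the pB founders alone it was 0.105% for slo PA (permutation p = 0.889) and 15.2% for slo PM (permutation p = 0.0555). Within the 20 crosses that carried B7 with A3, A4 or A6, the pA founder accounted for 68% of the variance of slo PA (permutation p = 6e-05) and 79.4% of that of slo PM (permutation p = 1e-05). Leaving out each of the 25 crosses in turn gave a permutation p of at most 0.0002 for both profiles.

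The limma fit over all transcripts, which is the test planned for this comparison, called none of 11064 transcripts (0%), with 739 (6.68%) at an unadjusted p under 0.05. In it the residual variances of all transcripts were moderated to nearly one value. The ordinary F test on the same crosses called 27 transcripts (0.244%), of which 23 were the slo rows. Its adjusted p was 0.0174 for slo PA and 0.0025 for slo PM. The other 4 were CG6980 and ana1, the near genes named above, CG33978 on chromosome 4 and CG10339 on 2R. The 23 slo rows hold 2 distinct profiles, and the adjustment counted every identical row. Such repeats lower the adjusted p of slo and of the other called rows. The founder test was not run with identical rows entered once, so which of the 27 would be called then was not tested. By the ordinary F test the unadjusted p was 9.03e-07 for slo PM, 3.78e-05 for slo PA, 4.83e-05 for CG6980 and 0.000108 for ana1. In the 25 crosses the r of slo PM with CG6980 was 0.76, and within founder classes 0.07. For slo PA with ana1 it was -0.54, and within founder classes -0.04. For slo PM with 5PtaseI PB it was -0.68 and within founder classes -0.53. The Slob profiles and tim did not pass the founder test at this locus (permutation p between 0.298 and 0.636). With 25 crosses a difference by founder can be missed.

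**Figure D5:**
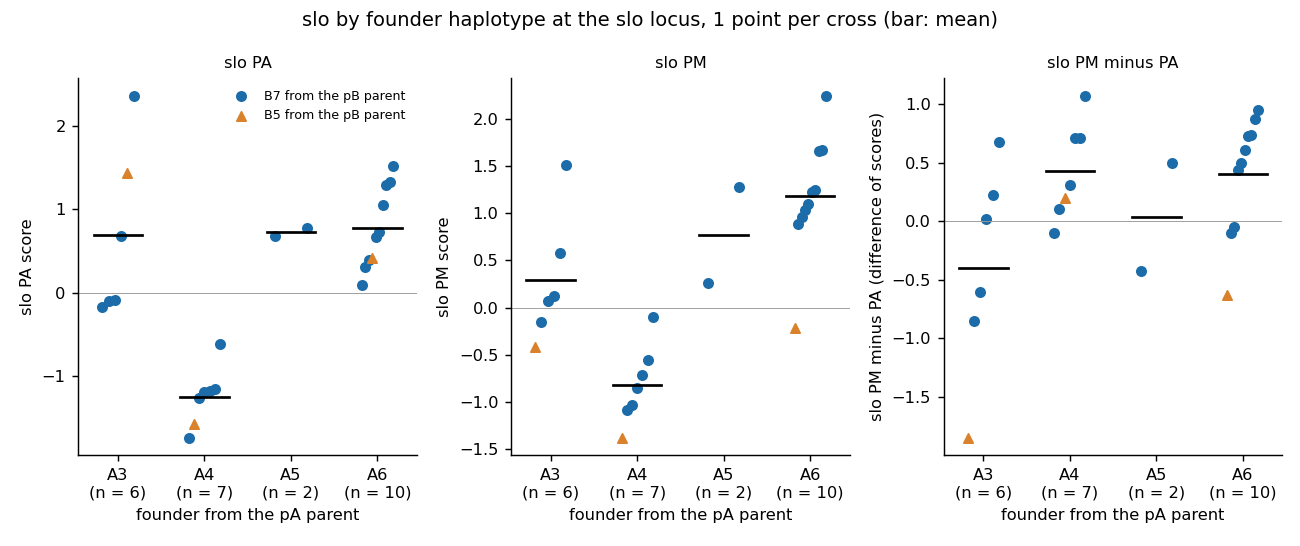
Scores of slo PA, slo PM and their difference in 25 crosses by the founder carried from the pA parent at the slo locus, with blue points for B7 and orange triangles for B5 from the pB parent and a bar at the mean. Crosses with A4 lie below 0 in both profiles, and the 3 crosses with B5 lie below every B7 cross of their pA founder in slo PM but not in slo PA.

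The founder result for the difference between the slo profiles had a larger permutation p and rested on few crosses. For slo PM minus PA the founders of both parents accounted for 54.0% of the variance (permutation p = 0.00638), and those of the pB parent alone for 28.5% (permutation p = 0.0122). The 3 crosses with B5 were at -1.85, -0.63 and 0.20, and the 22 with B7 ran from -0.85 through 0.46 to 1.07, so that the groups overlapped. Without the cross of maternal line 11044 the permutation p was 0.0949 for both parents and 0.169 for the pB parent alone. Within the crosses carrying B7 the pA founder accounted for 27.7% (permutation p = 0.0618).

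No founder assignment at a peak of Slob itself was used here. The nearest listed peak was that of Gr28b, 9 genes away on 2L, with 32 crosses of certain assignment. There the founders of both parents accounted for 34.6% of the variance of Slob PA (adjusted 11.8%, permutation p = 0.202), and for tim for 30.1% (permutation p = 0.32). Neither the limma fit nor the ordinary F test called any of 11064 transcripts (0%), with 647 at an unadjusted p under 0.05 in the limma fit. With the founders of the pB parent alone the share was 31.3% for Slob PA (permutation p = 0.0331), 33.5% for Slob PI (permutation p = 0.0243) and 27.3% for tim (permutation p = 0.0608). The 7 crosses with B6 ran from -0.29 through 0.80 to 2.04 in Slob PA, the 15 with B3 from -1.95 through -0.72 to 2.81 and the 3 with B7 from -1.87 to -0.68. Leaving out each cross in turn took the p for Slob PA above 0.05 in 7 of 32 cases, up to 0.0703 by permutation without the cross of line 11049. In these 32 crosses the r of Slob PA with tim was 0.87, and within founder classes 0.87.

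For the difference Slob PJ minus PA the pA founders at that locus accounted for 45.7% of the variance (permutation p = 0.00547, at most 0.014 by permutation with any 1 cross left out). The 7 crosses with A3 ran from 0.17 through 0.67 to 2.03, with a mean of 0.84 ± 0.68 (SD). The 13 with A4 ran from -0.77 through -0.07 to 0.59, the 6 with A1 from -0.07 through 0.20 to 0.42, and the 4 with A6 from -0.26 to 0.54. The groups overlapped. For the founders of both parents the permutation p was 0.0178, and 0.0654 without the cross of line 11035. In all 66 permutation tests of founders were run over both loci, on the 6 profiles, 4 differences and tim, with both parents or one of them, and the p-values above are not adjusted for that number. Of 11 with a p under 0.05, 4 passed after Benjamini-Hochberg adjustment over all of them. These were slo PA and slo PM at the slo locus with both parents or with the pA parent alone, at adjusted permutation p of at most 0.000495. The authors mapped that peak for slo in crosses that include these, so these 4 are no independent evidence. The lowest of the others was 0.0702, by permutation, for both slo PM minus PA with both parents and Slob PJ minus PA with the pA parent.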

How the data were processed

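RNA from female heads of 596 crosses was hybridised by the authors to NimbleGen arrays with 1 dye. Per the study's methods the authors corrected background and applied quantile normalization with the oligo package, mapped probes to coding sequences by exact match without requiring a unique one, removed probes affected by sequence variants and transcripts with few probes, and summarised probes by RMA. Transcripts of a gene that were all highly correlated were averaged, which did not apply to slo or Slob. The authors deposited each transcript as a score, a normal-quantile residual after removal of subpopulation and the first 10 principal components. Scores keep no level or spread in log2 units, so differences between profiles are differences of scores. The number of crosses limits the precision. All columns belonged to a sample.

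The deposited scores were used as they are. Each transcript outside the member's own gene was fitted on each profile with limma 3.58.1 in R 4.3.3 (lmFit, eBayes), with Benjamini-Hochberg adjustment over all of them and a threshold of 0.05. Single relations were tested with 100000 permutations, two-sided. Founders came from the study's supplementary table, of which 1999 rows and 45 crosses were used, and the choice of loci from 1472 rows of its list of peaks. Founder assignments were fitted as classes seen in at least 2 crosses. Gene order and symbols came from the RefSeq gene table of Release 6, in which 7395 of 7422 genes matched. Permutations and summaries ran in Python 3.11.15 with scipy 1.17.1, pandas 2.3.3 and numpy 2.4.6, plots were made with matplotlib 3.10.9, and the fits were tested on simulated data.

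Named genes were the 5 with the largest absolute r with slo PA and Slob PA, the 3 with the largest absolute r with the difference between the profiles with most isoforms, up to 3 measured neighbours on either side, and genes of the lists that passed the test, up to 6 per list. Listed genes vri, cry, jet, Pdf, Shawl, Irk2, stj, tipE, Unc79, repo, Eaat1, alrm, trp, trpl, Arr1, fit and Lsp2 were not analysed here. Other genes were named after their values were seen, as were the fits with timeless as a covariate, the differences of Slob PJ and PI from PA, the permutation tests of founders and the fit within B7. The members and the lists were chosen with earlier results of these data known.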

Additional observations from a re-analysis of the deposited data

Results flagged for a closer look

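Slob PI in the 10 crosses that carry founder A6 at the slo locus held 1 cross far from the others, at 2.64, with the next at 0.647. The gap is 0.49 of the range of the group. Of 48 founder groups of 4 to 10 crosses tested in this way over the 6 profiles and both loci, this was the one flagged, and chance flags about 1 in 20. No founder difference in the report rests on it, since no Slob profile passed the founder test at that locus.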

How the results depend on the processing

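No paired analysis was possible because the labels give no replicate numbers that the subpopulation crosses share. With 10 further principal components removed, the share of transcripts called was 0.851% for slo PA, 0.453% for slo PM, 0.516% for slo PM minus PA and 0.778% for Slob PF minus PA. In pA1 by pB2 alone these were 3.71%, 0.562%, 0.643% and 2.8%, and in pA2 by pB1 alone 3.61%, 0.136%, 0.0181% and 2.42%, with 4.35%, 3.76%, 1.66% and 3.83% for Slob PA, PF, PJ and PI. These fits have fewer crosses. With the cross median as a covariate slo PM minus PA had 0.915%. The other alternatives run kept these 8 shares within 1.5 times.

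Within genes, the correlation in pA2 by pB1 alone was 0.76 for slo PA with PM, 0.94 for Slob PA with PF and 0.72 for Slob PF with PJ. The ratio of standard deviations no longer passed with 10 further components for Slob PF (1.11) and Slob PI (1.09), nor as a ratio of interquartile ranges for Slob PI (1.20). The founder fit at the slo locus called 1 transcript with uncertain founders as a class. By the ordinary F test it called 27, with adjusted p of 0.0174 for slo PA and 0.0025 for slo PM. That adjustment counted every identical slo row, which lowers these values, and whether they would pass without the repeats was not tested. With each cross left out in turn the limma adjusted p of both slo profiles ran from 0.309 to 0.697. The correlations of both slo profiles with Slob PA stayed negative, but that of slo PA with Slob PF turned to 0.0145 with 10 further components. Those with Slob PA passed in no fit on a slo profile, and of the fits on Slob PA only slo PA passed, with timeless as a covariate (-0.0987, limma adjusted p = 0.0496).

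Of 76 named correlations, 54 kept their direction and call with 10 further components, 66 in pA1 by pB2 alone and 42 in pA2 by pB1 alone. The sign turned with 10 further components for Shaw (-0.0125) and elav (-0.00212) with slo PA and elav with slo PM (-0.0113), and in pA2 by pB1 alone for Snap25 (0.0187) and to (0.00647) with Slob PA. With timeless as a covariate, a fit chosen after seeing the data, it turned for Clk (0.0757), cwo (-0.0132), nonA (0.0149) and Irk1 (-0.00436) with Slob PA, none of which passed then. The cause of these changes was not tested.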
